A study of Mus musculus with 4 samples.

Results

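The collagen gene family was examined in kidney and heart of septic mice with and without melatonin. The members were the protein-coding genes whose mouse symbol begins with Col, a number, the letter a and a further number. The pattern matched 45 genes, of which Col4a3bp, which encodes a ceramide transfer protein and no collagen, was left out. The remaining 44 collagen genes were found among 55401 genes counted. They fell into 11 genes of fibrillar collagens, 6 genes of basement membrane collagen (type IV) and 27 genes of other types. A mean of 10 or more counts over the 2 libraries of a tissue was reached by 30 of them in kidney and by 29 in heart, with 27 in both.

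The study asked how melatonin (MLT) acts on organ injury in sepsis caused by cecal ligation and puncture (CLP), a surgical model in which gut content leaks into the abdomen. All mice were C57BL/6 and all had CLP, and sham mice were not analysed here. For the kidneys, the study's methods give male mice of 8 weeks, MLT, dissolved with a little ethanol, at 25 µg/ml in drinking water for 14 days before surgery in the CLP + MLT group, and collection 24 h after CLP. The same methods do not describe the hearts, so age, sex, dose and time are not given for them, and the 4 in the sample titles "CLP+MLT4" is not explained. RNA-seq of poly-A RNA gave 1 library for each group and tissue: kidney CLP, kidney CLP + MLT, heart CLP and heart CLP + MLT. No source used here says if a library pools several mice.

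With 1 library per group there was no replicate check, and no test of the conditions could be made. Ratios are therefore given with 95% exact intervals that cover counting error only, and the log2 ratio is that of CLP + MLT over CLP. A gene was counted as past the thresholds when its fold was at least 1.5 and an exact binomial test on the reads gave p of 0.01 or less. That test compares 2 libraries and not 2 conditions. The libraries held 15883057 to 22927905 reads on genes. Mitochondrially encoded genes took 14.8% of them in kidney CLP, 24.2% in kidney CLP + MLT, 31.6% in heart CLP and 36.0% in heart CLP + MLT. The tissue labels were borne out by defining markers, with Kap, a proximal tubule gene, at levels (RPKM, reads scaled to gene length and library size) of 23114 and 36012 in kidney and Myh6, a heart muscle myosin, at 2101 and 1653 in heart. The heart libraries also held reads on tubule markers, whose source was not tested. For 5 of 7 markers, heart levels were 1.80% to 4.03% of kidney levels under CLP and 2.65% to 5.68% under CLP + MLT. The other 2 markers, Aqp1 and Slc5a2, were higher still, and Aqp1, a water channel, is also made by vessels.

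Collagens are triple helices of 3 chains, which may be copies of 1 gene product or of several. Fibrillar collagens pack into the cables that give tissue its tensile strength, with type I and type III the bulk of the interstitium and type V a regulator of fibril width. Type IV forms the sheet-like network of basement membranes, where the chains of Col4a1 and Col4a2 occur in nearly every tissue and those of Col4a3, Col4a4 and Col4a5 build the filter of the glomerulus. Other types decorate fibrils, form beaded filaments, anchor membranes or span the cell surface. In scarring kidney and heart, fibroblasts are known as the main source of type I and type III.

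Start regions of Col3a1, Col5a1 and Col5a3 are shown as 3 of the fibrillar genes with a log2 ratio of about -0.52 or less in heart, of which Col5a3 alone passed the thresholds explained above (values given with the fibrillar genes). Col1a1 and Col5a2, also in that range, are not shown. Each is the 250 bases before the RefSeq start in GRCm38.p6, read 5′ to 3′ on the gene's strand, and no GENCODE exon lies in any of them. Capitals mark matches, on either strand, to CCAAT (reverse ATTGG), to the GC box GGGCGG (reverse CCGCCC) or to TATAAA (reverse TTTATA). Matches of different motifs do not overlap in these windows. The windows are chr1:45311288-45311537 (+) for Col3a1, chr2:27886175-27886424 (+) for Col5a1 and chr9:20815068-20815317 (-) for Col5a3.
Col3a1: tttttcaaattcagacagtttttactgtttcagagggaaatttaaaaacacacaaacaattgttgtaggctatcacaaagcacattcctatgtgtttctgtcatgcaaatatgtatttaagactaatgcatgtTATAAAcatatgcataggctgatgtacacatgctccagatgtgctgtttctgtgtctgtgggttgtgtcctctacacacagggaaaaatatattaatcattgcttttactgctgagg
Col5a1: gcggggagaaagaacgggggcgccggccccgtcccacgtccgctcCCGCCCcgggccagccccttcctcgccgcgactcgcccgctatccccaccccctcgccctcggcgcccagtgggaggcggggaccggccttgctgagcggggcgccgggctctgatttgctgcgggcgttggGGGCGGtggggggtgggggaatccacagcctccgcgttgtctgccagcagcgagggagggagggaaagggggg
Col5a3: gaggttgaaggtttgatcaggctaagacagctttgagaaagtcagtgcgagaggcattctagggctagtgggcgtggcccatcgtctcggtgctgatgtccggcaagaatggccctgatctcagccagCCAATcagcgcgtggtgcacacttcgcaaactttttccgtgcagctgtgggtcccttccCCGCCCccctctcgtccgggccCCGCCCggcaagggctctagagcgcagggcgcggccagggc
The 3 windows were unlike each other. The window of Col3a1 had a G and C content of 35.2% with 1 TATAAA match. That of Col5a1 had 76.4% with 2 GC boxes, and that of Col5a3 had 62.8% with 2 GC boxes and 1 CCAAT match. RefSeq windows were present for 35 of the 44 collagen genes. A GC box lay in 21 of these 35 (60.0%), against 32.9% of the 27025 windows of all RefSeq genes, coding or not. CCAAT was found in 34.3% of the collagen windows and 34.5% of all windows, and TATAAA in 14.3% and 13.0%. These matches describe letters and not bound sites.

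Type IV genes had the highest summed level of the 3 classes in every library. Levels are in RPKM, reads scaled to the summed length of a gene's exons and to library size (TMM over the 4 libraries), so that genes of different length can be set side by side. In kidney CLP the type IV genes summed to 91.6, the fibrillar genes to 32.2 and the other types to 40.6. In kidney CLP + MLT the sums were 79.9, 30.6 and 40.0. In heart CLP they were 127.5, 52.6 and 37.6, and in heart CLP + MLT 102.3, 37.1 and 37.1. Type IV thus made up 55.7%, 53.1%, 58.6% and 58.0% of the summed collagen level in the 4 libraries. With the transcript of the longest coding sequence as the length, their share of the mean level was 47.2% in kidney and 52.9% in heart, so whether they exceeded the other classes together in kidney depends on the length used. As a share of all reads on genes, collagens took 0.169% (95% exact interval 0.167 to 0.170) in kidney CLP and 0.136% (0.134 to 0.138) in kidney CLP + MLT. In heart the shares were 0.139% (0.138 to 0.141) for CLP and 0.114% (0.113 to 0.116) for CLP + MLT. Of the reads on genes outside the mitochondrial genome they were 0.198% and 0.179% in kidney and 0.204% and 0.179% in heart. Both shares were lower in the CLP + MLT library of each tissue by more than counting error. In bulk tissue, fewer cells of a type and less RNA per cell cannot be told apart.

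**Figure D1:**
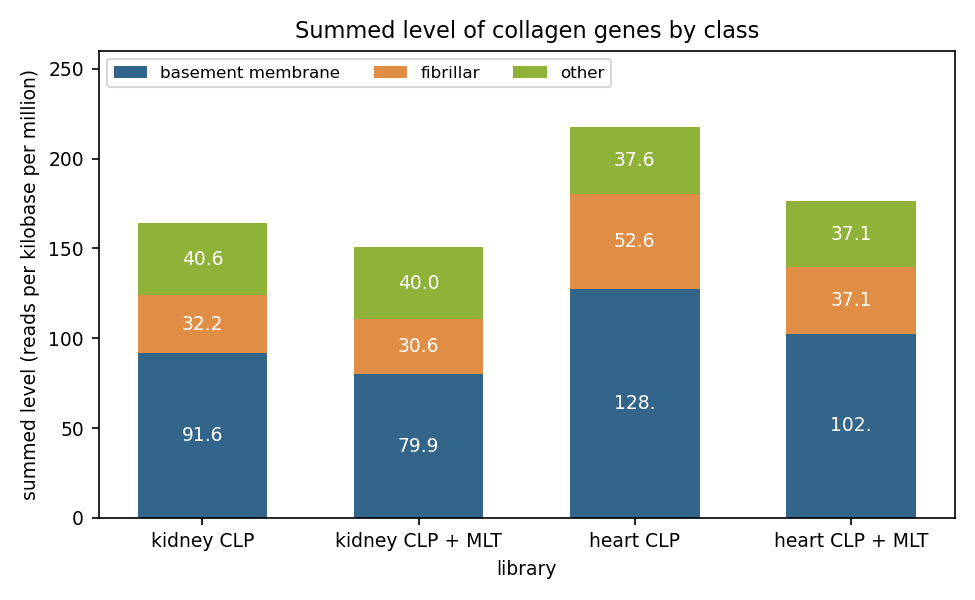
Summed level of the collagen genes (vertical axis, RPKM, from 0) in each of the 4 libraries, split into basement membrane, fibrillar and other types; the number in each block is its sum. The basement membrane block is the tallest in every library, and the fibrillar block is 52.6 in heart CLP and 37.1 in heart CLP + MLT.

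In kidney the most abundant collagen genes by mean level were Col4a1 (25.7), Col18a1 (22.9), Col4a2 (21.1), Col27a1 (19.3), Col4a4 (16.3) and Col4a3 (16.0). Col18a1 encodes a basement membrane proteoglycan chain from which endostatin is cut, and Col27a1 a fibrillar chain known from cartilage. Col4a5 (6.41) and Col16a1 (5.52) followed at a distance. In heart the order was Col4a2 (54.2), Col4a1 (45.0), Col6a1 (15.0), Col4a5 (13.1), Col5a3 (12.4), Col3a1 (8.71), Col1a1 (4.74) and Col11a2 (4.44). Neighbours in the kidney order overlapped between libraries, with Col4a1 at 28.7 and 22.6 in the 2 libraries and Col4a2 at 24.3 and 18.0. Col4a3 and Col4a4 could not be ordered, at 16.2 and 15.8 against 16.1 and 16.4. The order also depends on the length used. With the transcript of the longest coding sequence in place of all exons, Col27a1 came first in kidney at 33.1 and Col3a1 took the fourth place in heart at 15.4.

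**Figure D2:**
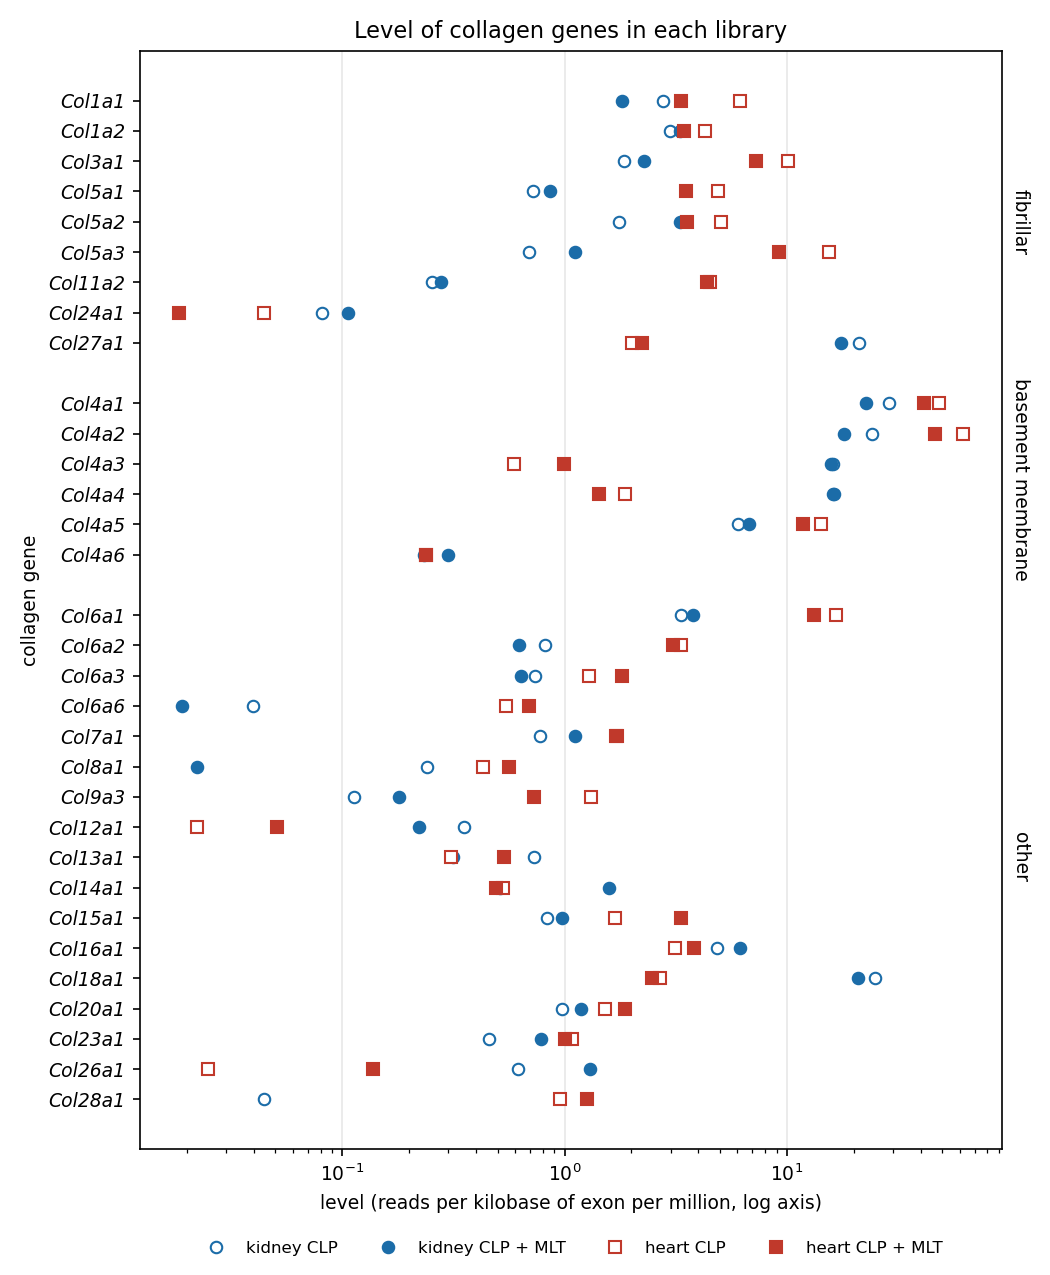
Level of each collagen gene that passed the filter in at least 1 tissue (horizontal axis, RPKM, log axis), with kidney as circles, heart as squares, CLP open and CLP + MLT filled. Each point is 1 library, points can hide each other, and a library with no reads has no point; Col4a3, Col4a4, Col18a1 and Col27a1 lie far to the right in kidney and Col5a3, Col11a2, Col6a6 and Col28a1 in heart.

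Some collagen genes differed between heart and kidney in both libraries of each tissue. Of 31 collagen genes with a mean of 10 or more counts over the 4 libraries, 15 were at least 1.5 times higher in both heart libraries than in both kidney libraries, 6 were higher in both kidney libraries and 10 were neither. Over all 17069 genes compared, 26.4% were higher in heart and 28.2% in kidney. With library size alone as the scale, the counts were 9 for heart and 7 for kidney, so the number on the heart side depends on the scaling. The share of all genes on that scale was not counted. The 2 libraries of a tissue differ in treatment and are not replicates. The 6 kidney genes were Col4a3, Col4a4, Col18a1, Col27a1, Col12a1 and Col26a1, with mean levels in heart at 0.0496 (Col4a3) to 0.128 (Col12a1) times those in kidney. Col4a3, a chain of the glomerular filter, had levels of 16.2 and 15.8 in kidney and of 0.590 and 0.995 in heart. The heart levels of Col4a3 were 3.65% and 6.30% of those in kidney, beside the percentages of the tubule markers given above. Col4a4 in heart was at 11.6% and 8.69%, Col18a1 at 10.8% and 11.8% and Col27a1 at 9.51% and 12.7%. The part of kidney RNA in these heart levels was not tested. On the heart side, Col28a1, a collagen known from peripheral nerves, had 69 and 88 reads in heart and 6 and 0 in kidney. Col6a6 had 74 and 90 reads in heart against 10 and 3, Col11a2 457 and 429 against 48 and 33, and Col5a3 1563 and 891 against 130 and 131. The type I genes were in neither group. Col1a1 was 2.06 times higher in heart on average (2.79 and 1.81 in kidney, 6.14 and 3.34 in heart) and Col1a2 1.23 times (2.98 and 3.30 in kidney, 4.27 and 3.45 in heart).

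In kidney, 9 of the 30 collagen genes tested were past the thresholds between the CLP + MLT and the CLP library, 5 higher and 4 lower. Over all 16932 genes tested, 15.4% were past them, 7.80% higher and 7.58% lower. The median log2 ratio was 0.18 over the collagen genes and 0.0029 over all genes. In heart, 5 of 29 were past, 2 higher and 3 lower, against 15.9% of 15871 genes (7.15% higher and 8.78% lower). The median was -0.16 over the collagen genes and 0.0023 over all genes. The heart share of 17.2% was thus near the background, while the kidney share was 30.0%. These calls take no account of variation between mice. At an assumed coefficient of variation of 0.2, Col8a1 and Col14a1 alone passed in kidney (3.66% of all genes did) and no collagen gene passed in heart (4.17% of all genes did). With library size alone as the scale, 8 passed in kidney, 3 higher and 5 lower (37.5% higher, against 55.6% with the main scaling).

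**Figure D3:**
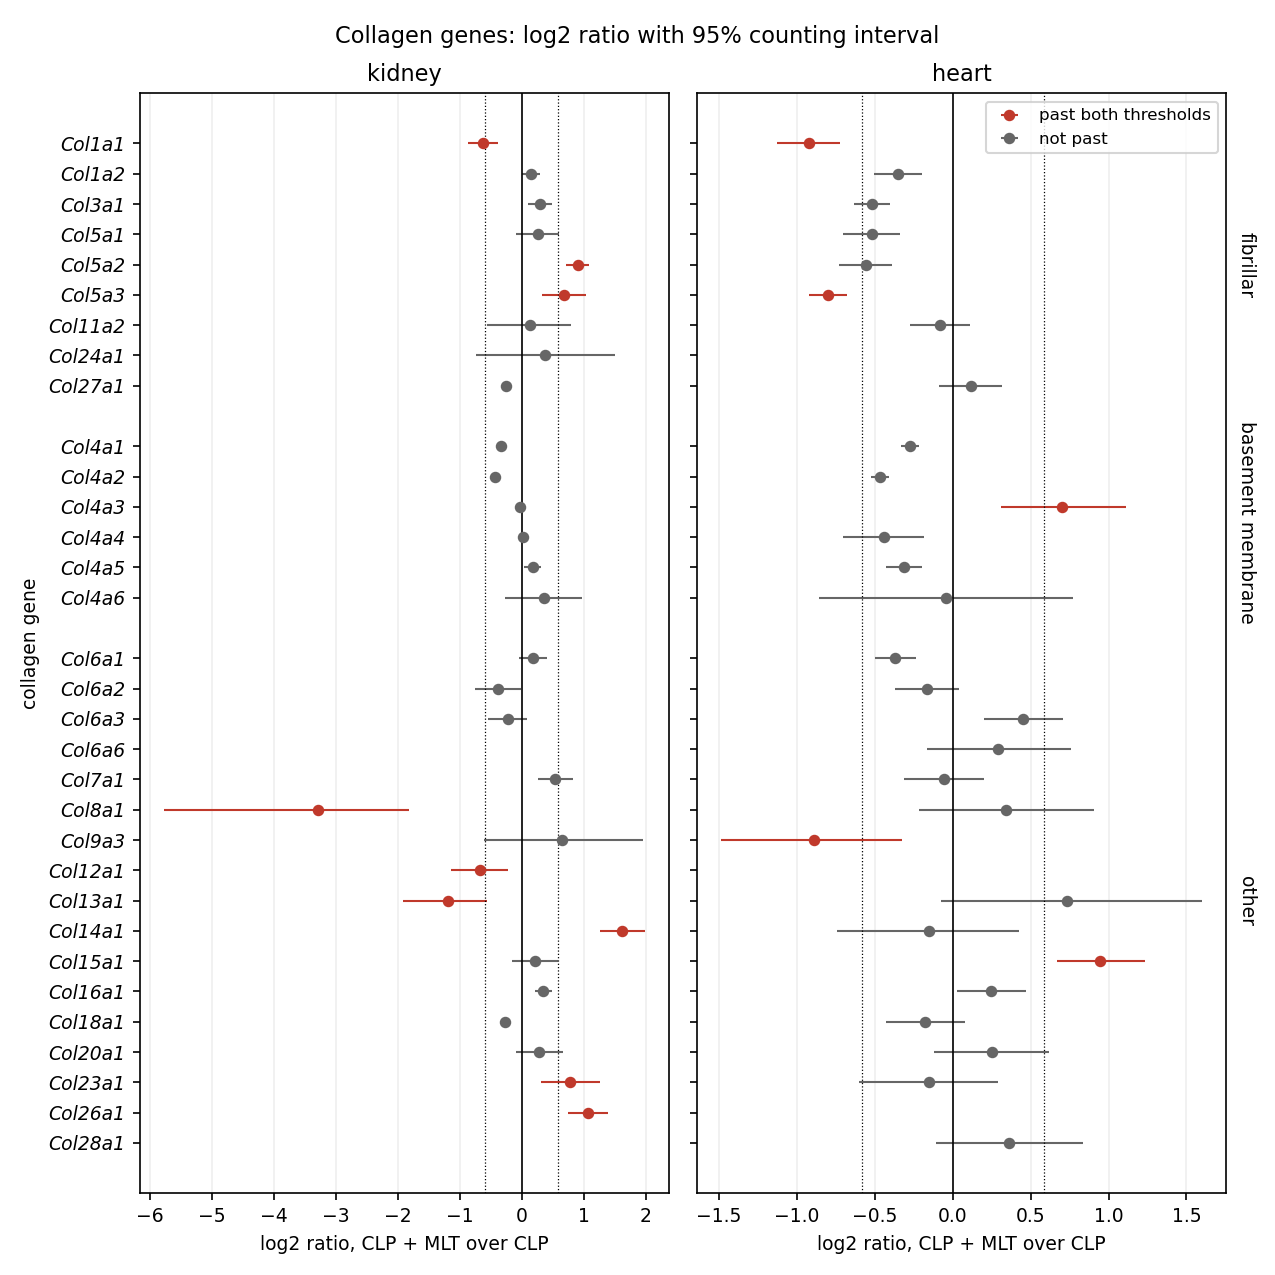
Log2 ratio of CLP + MLT over CLP (horizontal axes, which differ in range between kidney at left and heart at right) for each collagen gene tested, grouped by class. Points are ratios, bars 95% exact counting intervals, dotted lines the fold of 1.5, and red marks genes past both thresholds; in heart the points of 7 of 8 fibrillar genes lie left of 0, while in kidney 7 of 9 lie right of it.

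Most fibrillar genes had ratios below 0 in heart and above 0 in kidney, the kidney side depending on the scaling. In heart, 7 of 8 tested had a log2 ratio below 0 with a median of -0.52, and 2 were past the thresholds, both lower. In kidney, 7 of 9 were above 0 with a median of 0.26. The 2 below 0 were Col1a1 and Col27a1, and Col27a1 held 21.1 of the summed fibrillar level of 32.2 in kidney CLP. Past the thresholds were 2 higher and 1 lower (33.3%, against 15.4% of all genes). With library size alone, 5 of 9 in kidney were above 0 with a median of 0.06, and the heart median was -0.46. Across all genes, 49.8% in heart and 49.7% in kidney had a ratio below 0. The difference between the tissues was not tested.

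Col1a1, the major chain of type I collagen, was lower in the CLP + MLT library of both tissues. It had 502 reads in kidney CLP and 205 in kidney CLP + MLT, a log2 ratio of -0.62 (-0.86 to -0.38) and a fall of 1.54-fold. In heart it had 596 and 312 reads, a log2 ratio of -0.92 (-1.13 to -0.72) and a fall of 1.90-fold. Its partner Col1a2 was not past the thresholds in either tissue. Col1a2 had 1017 and 708 reads in kidney, a log2 ratio of 0.15 (0.01 to 0.29), and this sign turned to -0.05 with library size alone. In heart Col1a2 had 784 and 610 reads and a log2 ratio of -0.35 (-0.51 to -0.20), short of the fold threshold. Col3a1, which encodes the chain of type III, had 498 and 385 reads in kidney, a log2 ratio of 0.30 (0.11 to 0.50), and 1470 and 1019 in heart, -0.52 (-0.64 to -0.40). Neither passed the fold threshold.

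The type V genes, whose chains join type I fibrils, stood apart in the 2 organs. Col5a2 had 465 reads in kidney CLP and 546 in kidney CLP + MLT although the second library was shallower, a log2 ratio of 0.90 (0.72 to 1.09). In heart Col5a2 had 717 and 483 reads and a log2 ratio of -0.56 (-0.73 to -0.39), just short of the threshold. Col5a3 had 130 and 131 reads in kidney, a log2 ratio of 0.68 (0.32 to 1.04), and was past the thresholds there as higher. In heart it had 1563 and 891 reads, a log2 ratio of -0.80 (-0.92 to -0.68), past them as lower. Col5a3 was the one collagen gene called in opposite directions, and its kidney call was lost with library size alone, where the ratio was 0.49. The share of all genes called in opposite directions was not counted, so this gene cannot be set against a background. Col5a1 had 168 and 126 reads in kidney (0.26, -0.09 to 0.60) and 617 and 427 in heart (-0.52, -0.70 to -0.34), neither past. Col1a1, Col3a1, Col5a1, Col5a2 and Col5a3 thus lay between -0.92 and -0.52 in heart.

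The remaining fibrillar genes were near 0 or sparse. Col27a1 had 7538 and 3953 reads in kidney, the most of any collagen gene there, with a log2 ratio of -0.26 (-0.32 to -0.20). In heart it had 386 and 415 reads and 0.11 (-0.09 to 0.32), the one fibrillar ratio above 0 in that tissue. Col11a2, whose product is known as a minor chain of cartilage fibrils, was at 0.13 in kidney and -0.08 in heart, both with intervals that include 0. Col24a1 was tested in kidney alone, at 17 and 14 reads. Col2a1 and Col11a1, which encode the main and the minor fibrillar chain of cartilage, had at most 5 reads in any library.

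The heart values of the fibrillar genes came with lower fibroblast markers. Of 10 fibroblast markers, 7 had a ratio below 0 in heart and 4 were past the thresholds, all lower: Gsn (9866 and 5325 reads), Pi16 (1681 and 1006), Mfap5 (543 and 291) and Thy1 (55 and 26). The other 3, Lum (0.43), Tcf21 (0.46) and Fap (0.33), were above 0. The summed level of the 10 was 320 in heart CLP and 206 in heart CLP + MLT, and 108 and 87.3 without Gsn. In kidney the sums were 36.3 and 36.1, and none of 8 tested was past the thresholds. Of 8 heart muscle markers, 6 had a ratio below 0 in heart and 3 were past the thresholds, all lower, with sums of 9186 and 5481. The other 2, Actc1 (0.47) and Pln (0.10), were above 0. Most endothelial markers were above 0 in heart (8 of 9), with sums of 432 and 496. The part of these shifts in the collagen values was not tested.

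Type IV genes of the basement membrane gave 1 call in the 2 tissues. None of 6 was past the thresholds in kidney (against 15.4% of all genes), where the median log2 ratio was -0.0028. In heart 1 of 6 was past them (16.7%, against 15.9% of all genes), and 5 of 6 lay below 0 with a median of -0.29. Col4a1 and Col4a2, the chains found in nearly all basement membranes, were below 0 in both organs. Col4a1 had 5890 and 2918 reads in kidney, -0.34 (-0.41 to -0.28), and 5359 and 4404 in heart, -0.27 (-0.33 to -0.22). Col4a2 had 4409 and 2058 reads in kidney, -0.43 (-0.50 to -0.35), and 6072 and 4361 in heart, -0.47 (-0.52 to -0.41). These intervals exclude 0 but all 4 folds were under 1.5. With library size alone Col4a2 in kidney reached -0.62 and passed, on a scale that moved the median of all kidney genes to -0.19. Endothelial markers, of cells known to make both chains, had sums of 71.6 in kidney CLP and 61.4 in kidney CLP + MLT, with 8 of 9 below 0 and 1, Flt1, past the thresholds as lower. In heart 8 of 9 endothelial markers were above 0, with sums of 432 in heart CLP and 496 in heart CLP + MLT. The part of endothelial RNA in the values of Col4a1 and Col4a2 was not tested in either tissue.

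The chains of the glomerular filter were even in kidney. Col4a3 had 4430 and 2717 reads, a log2 ratio of -0.03 (-0.10 to 0.04), and Col4a4 had 4695 and 3004, 0.03 (-0.04 to 0.09). Col4a5 had 1110 and 788 reads, 0.18 (0.04 to 0.31), and the signs of Col4a4 and Col4a5 turned with library size alone. These values stood beside lower podocyte markers, the podocyte being the cell that makes these chains in the adult filter. In kidney 5 of 6 podocyte markers were below 0 and 2 were past the thresholds as lower, among them Podxl (5429 and 2213 reads, -0.62), with sums of 76.4 and 54.4. In heart Col4a3 had 87 and 141 reads and a log2 ratio of 0.70 (0.31 to 1.11), past the thresholds as higher. Col4a4 in heart had 294 and 215 reads, -0.44 (-0.70 to -0.18), so the pair pointed apart there. In the heart CLP + MLT library 4 of 7 tubule markers were past the thresholds as higher, Kap, Slc34a1, Lrp2 and Cubn, with log2 ratios of 1.15 for Kap and up to 1.50 for Lrp2. The other 3 were not, at 0.15 for Slc22a6, -0.03 for Aqp1 and -0.36 for Slc5a2. The summed level of the 7 was 601 and 1156, and 185 and 201 without Kap. Most of the sums without Kap was Aqp1, at 164 and 167, so they say little about the remaining markers. An RNA annotated on the same bases, C430014B12Rik, covers 5.65% of the exons of Col4a3, and the strand setting of the counts is not given. Col4a5 in heart had 1416 and 1133 reads, -0.31 (-0.43 to -0.20), and Col4a6, the sparse sixth chain, had 51, 41, 28 and 27 reads in the 4 libraries with intervals that include 0.

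Among the other types, kidney had 3 genes higher and 3 lower of 15 tested (40.0%, against 15.4% of all genes), with a median of 0.22. Heart had 1 higher and 1 lower of 15 (13.3%, against 15.9% of all genes), with a median of 0.25. The widest change of the family was in Col8a1, a short chain network collagen of vessel walls and of the membrane under corneal endothelium. Col8a1 had 52 reads in kidney CLP and 3 in kidney CLP + MLT, a log2 ratio of -3.29 (-5.77 to -1.82). In heart it had 50 and 63 reads, 0.34 (-0.22 to 0.91). The kidney value rests on few reads, and it passed also at an assumed coefficient of variation of 0.4, the one collagen gene to do so. Of the cartilage and fat markers, 2 fell in the same library: Sox9, a transcription factor of cartilage and of injured tubules, had 92 and 11 reads, and Plin1, a fat droplet protein, 33 and 1. Other markers of these lists did not pass, with Comp at 17 and 18 reads (0.73), Cidec at -1.29 and Fabp4 at -0.16. Acan, Matn1 and Ibsp, which define cartilage and bone, had no reads in either kidney library. The part of surrounding tissue in these values was not tested.

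Collagens that sit on the surface of fibrils showed both directions in kidney. Col14a1, which binds fibrils in the interstitium, had 99 and 192 reads and the highest log2 ratio of the family, 1.62 (1.27 to 1.99), a rise of 3.08-fold. Its heart counts were 55 and 49, -0.16 (-0.74 to 0.43). Col12a1, its close relative, had 147 and 58 reads in kidney, -0.67 (-1.13 to -0.22), and 5 and 11 in heart, below the filter. Col16a1, which joins fibrils and cell contacts, was at 0.35 in kidney (901 and 721 reads) and 0.25 in heart (313 and 369), short of the thresholds. Col20a1 was at 0.29 and 0.25 with intervals that include 0. Col9a3, a chain of type IX that shares 6.07% of its exons with Tcfl5, had 75 and 40 reads in heart, -0.89 (-1.49 to -0.32), and 12 in each kidney library. Of its partner chains, Col9a1 had no reads in any library and Col9a2 at most 8.

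The transmembrane collagens split in kidney. Col13a1, found at cell adhesion sites and nerve-muscle junctions, had 92 and 25 reads, -1.20 (-1.91 to -0.56), and in heart 21 and 35, 0.73 (-0.07 to 1.60). Col23a1 had 72 and 78 reads in kidney, 0.78 (0.31 to 1.27), which fell short of the thresholds with library size alone (0.59), and 92 and 82 in heart, -0.16 (-0.60 to 0.29). Col26a1, a short collagen first described in testis and ovary, had 139 and 183 reads in kidney, 1.07 (0.74 to 1.40), a rise of 2.09-fold. In heart Col26a1 had 3 and 16 reads and stayed below the filter.

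Col15a1 and Col18a1, which lie between basement membrane and fibrils, differed between the tissues. Col15a1 had 158 and 303 reads in heart, 0.95 (0.67 to 1.24), a rise of 1.93-fold and the highest collagen ratio in that tissue. In kidney it had 146 and 107 reads, 0.22 (-0.15 to 0.59). Type XV is made by muscle and endothelium, and endothelial markers had a median log2 ratio of 0.19 in heart. Of the 9, the receptor Kdr alone was past the thresholds (1759 and 3277 reads, 0.91), while Egfl7 was at 0.0044 and Pecam1 at -0.08. The part of endothelial RNA in the value of Col15a1 was not tested. Col18a1 had 4823 and 2523 reads in kidney, -0.26 (-0.33 to -0.19), and 280 and 246 in heart, -0.18 (-0.43 to 0.08). When both were counted as basement membrane genes, the class medians stayed within their counting intervals.

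Type VI, the beaded filament around cells, had no gene past the thresholds among 3 tested in kidney and 4 in heart. Across all genes 15.4% in kidney and 15.9% in heart were past them, and so short a list may hold none at that share. Col6a1 had 402 and 287 reads in kidney, 0.19 (-0.04 to 0.41), and 1079 and 830 in heart, -0.37 (-0.50 to -0.24). Col6a2 had 186 and 90 in kidney, -0.37 (-0.75 to -0.0046), and 411 and 364 in heart, -0.17 (-0.37 to 0.04). Col6a3 was at -0.22 in kidney and 0.45 in heart, and Col6a6 at 0.29 in heart. Col7a1, the anchoring fibril of skin, had 218 and 199 reads in kidney, 0.54 (0.26 to 0.82), and 261 and 249 in heart, -0.06. Col28a1 in heart was at 0.36 (-0.11 to 0.84).

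Of 5 pairs of chains that share a molecule, type I was the one whose ratio differed beyond its counting intervals between the CLP and CLP + MLT libraries of both tissues. Type I is mostly made of 2 chains of Col1a1 for each chain of Col1a2. The ratio of the per-length levels of Col1a1 to Col1a2 was 0.935 (0.838 to 1.04) in kidney CLP and 0.548 (0.467 to 0.641) in kidney CLP + MLT. In heart it was 1.44 (1.29 to 1.60) and 0.968 (0.842 to 1.11). It was lower in the CLP + MLT library of both tissues, with intervals that do not overlap. A ratio within a library does not depend on scaling, and its change between libraries does not depend on the gene lengths used. Col5a1 to Col5a2 was 0.408 (0.340 to 0.488) and 0.261 (0.213 to 0.317) in kidney and 0.972 and 0.999 in heart. Col4a1 to Col4a2 was 1.18 (1.14 to 1.23) and 1.26 (1.19 to 1.33) in kidney and 0.783 (0.754 to 0.812) and 0.896 (0.859 to 0.934) in heart. Col4a3 to Col4a4 was 1.00 and 0.963 in kidney, and 0.315 (0.245 to 0.401) and 0.698 (0.561 to 0.868) in heart. Col6a1 to Col6a2 lay between 4.11 and 6.06 in the 4 libraries, and the kidney intervals (3.44 to 4.91 and 4.77 to 7.77) overlapped. The height of such a ratio, unlike its change, does depend on length: with the longest coding transcript the type I ratio was 0.445, 0.261, 0.686 and 0.461.

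**Figure D4:**
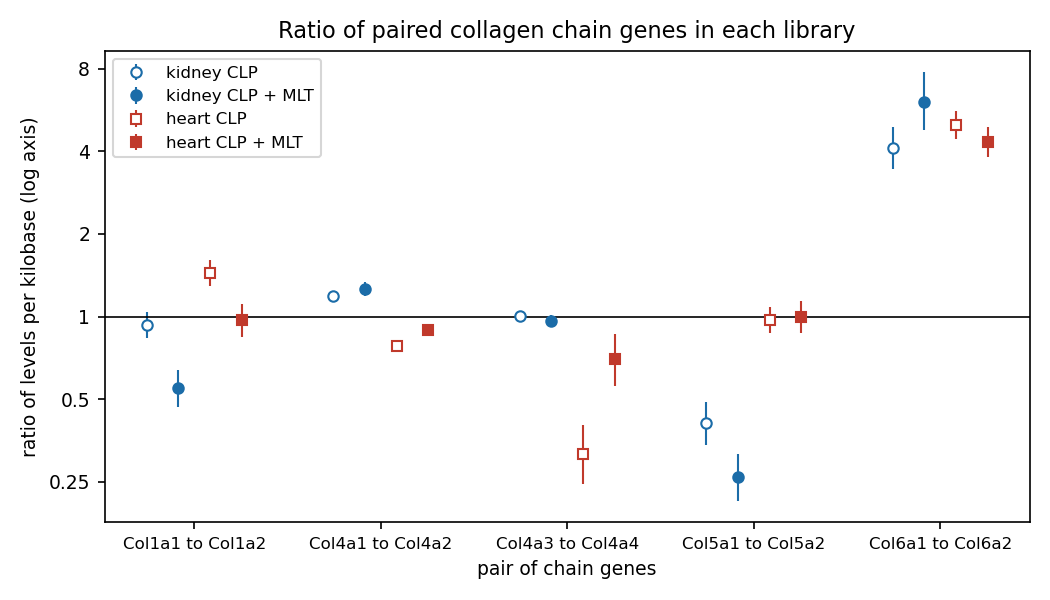
Ratio of per-length levels of paired collagen chain genes (vertical axis, log axis) in each of the 4 libraries, with 95% exact counting intervals as bars. The ratio of Col1a1 to Col1a2 is lower in the CLP + MLT library (filled) than in the CLP library (open) in both tissues, and that of Col4a3 to Col4a4 is near 1 in kidney and below 1 in heart.

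Several of these pairs are neighbours in the genome (GENCODE M21, GRCm38). Col4a1 and Col4a2 start head to head on chromosome 8, and their annotated transcripts overlap by 22 bases. Their log2 ratios were -0.34 and -0.43 in kidney and -0.27 and -0.47 in heart. Col4a4 and Col4a3 start head to head on chromosome 1 with 71 bases between them. They were alike in kidney (0.03 and -0.03) and apart in heart (-0.44 and 0.70). Col4a6 and Col4a5 start head to head on chromosome X with 1308 bases between them, and were at 0.35 and 0.18 in kidney and at -0.04 and -0.31 in heart. Col3a1 and Col5a2 end towards each other on chromosome 1, 24614 bases apart, and were at 0.30 and 0.90 in kidney and at -0.52 and -0.56 in heart. Col1a1 lies on chromosome 11 (94936224 to 94953042, + strand) and Col1a2 on chromosome 6 (4504814 to 4541544, + strand).

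Genes that make, trim and cross-link collagen are to be read against 15.4% of all genes past the thresholds in kidney and 15.9% in heart. Their shares were below these values, except for processing and cross-linking in heart, where the share was higher. Of 22 genes for hydroxylation and folding tested in each tissue, 1 was higher and 1 lower in kidney (9.09% past, median -0.04) and 3 were lower in heart (13.6% past, median -0.17). P4ha2, a prolyl hydroxylase that stabilises the helix, had 1074 and 382 reads in kidney and a log2 ratio of -0.82. Colgalt2, a collagen galactosyltransferase, was at 0.74 in kidney. The 3 lower in heart were Fkbp14 (-0.83) and Fkbp10 (-0.63), which help the chains fold, and Tmem38b (-0.83), a potassium channel of the reticulum. Of 11 genes for processing and cross-linking, 1 was lower in kidney (9.09% past), and 1 was higher and 3 lower in heart (36.4% past). Adamts2, which cuts the amino end of procollagen, was lower in both tissues, with 106 and 40 reads in kidney (-0.73) and 191 and 97 in heart (-0.96). Lox (-0.83) and Loxl1 (-0.67), which cross-link fibrils, were lower in heart, and Pcolce2, which speeds the cut at the other end, was higher there (0.61). The medians of this list were -0.36 in kidney and 0.06 in heart.

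Among genes that break collagen down or hold that back, all calls were lower. In heart 4 of 12 tested were past the thresholds (33.3%, against 15.9% of all genes), with a median of -0.42. They were Timp1, an inhibitor of metalloproteinases (199 and 46 reads, -2.09, -2.60 to -1.63), Mmp3 (365 and 149, -1.28), Mmp8, a collagenase of neutrophils (41 and 19, -1.08), and Mmp14 (406 and 221, -0.87). Another 4 had ratios above 0 without passing: Ctsk (0.82), Mmp9 (0.60), Fap (0.33) and Mrc2 (0.15). In kidney 2 of 11 (18.2%, against 15.4%) were lower, Mmp13 (31 and 2 reads, -3.06) and Timp3 (24319 and 10126 reads, -0.59), with a median of -0.26. Of 9 collagen receptors tested, Adgrg6 was the one past the thresholds in each tissue, at 0.69 in kidney and 1.20 in heart.

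Other matrix genes gave a mixed picture, to be read against 15.4% of all genes past the thresholds in kidney and 15.9% in heart. Of other basement membrane genes, 2 of 15 were higher and 1 lower in kidney (median 0.10), and 2 of 13 were higher in heart (median 0.22). Lama4, a laminin chain of vessels and muscle, was higher in both tissues, with 60 and 73 reads in kidney (0.95) and 929 and 1828 in heart (0.99). Lamc3 (0.80) was also higher and Lamb3 (-1.53) lower in kidney. Of other interstitial matrix genes, 4 of 15 were higher and 1 lower in kidney (33.3% past, median 0.07). Those higher were Postn (17 and 27 reads, 1.31), Fmod (154 and 177, 0.87), Fn1, fibronectin (244 and 251, 0.71) and Thbs2 (0.67), and Sparc, a collagen-binding protein, was lower (4954 and 1918, -0.70). In heart 3 of 17 were higher and 2 lower (29.4% past, median -0.21). Tnc (7 and 26 reads, 1.83), Ltbp2 (12 and 32, 1.39) and Thbs1 (97 and 213, 1.14) were higher, and Mfap4 (-1.19) and Mfap5 (-0.89), both of elastic microfibrils, lower.

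A further 12 collagen genes were below the filter in both tissues and were not compared: Col2a1, Col6a4, Col6a5, Col8a2, Col9a1, Col9a2, Col10a1, Col11a1, Col17a1, Col19a1, Col22a1 and Col25a1. None had more than 11 reads in a library. Col6a4 had 11 reads in kidney CLP + MLT and 0 in the other 3 libraries.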

How the data were processed

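Poly-A RNA libraries (NEBNext Ultra RNA kit) were sequenced from kidney and heart, 1 per group. Per the study's methods and the submitters' processing notes, the authors trimmed reads with trim-galore, aligned them to mm10 with HISAT2 2.1.0 at default settings and used HTSeq; neither the annotation nor HTSeq's version or strand setting is given in the sources used here. The deposited values are raw counts of reads per gene. The 5 rows of each file that name no gene (reads on no feature, ambiguous or aligned more than once, among others) were left out of library sizes; together they held 65.5% to 72.8% of the reads listed, and reads aligned more than once 23.6% to 38.6%. Of 55401 gene identifiers, 55141 were matched without version to GENCODE M21.

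From the counts, TMM factors were computed within each tissue, and over all 4 libraries for levels, with edgeR 4.0.16 in R 4.3.3. Python 3.11.15 served for all else (scipy 1.17.1, pandas 2.3.3, numpy 2.4.6; statsmodels 0.14.6 for loess; matplotlib 3.10.9 for figures). In log2 ratios, 0.5 was added to each count in proportion to library size. A gene was compared where its 2 libraries averaged 10 or more counts. Intervals are 95% exact Clopper-Pearson intervals on the reads; since PCR copies of 1 molecule may be counted more than once, intervals cover counting error only. The study stated edgeR with a fold of 1.5 and p of 0.01; with 1 library per group no dispersion could be estimated, so these thresholds were applied with an exact binomial test, which compares libraries and not conditions. Alternatives were other scalings (library size, DESeq2 1.42.0 size factors, upper quartile, TMM without mitochondrial and haemoglobin genes), other filters, a prior count of 5, removal of the trend on length, assumed variation between mice and a fold of 2. The statistics were tested on simulated counts that held counting error only, so that test does not cover variation between mice.

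All collagen genes are accounted for; named with counts are those past the thresholds in either tissue, the 8 of highest level in each tissue and the chains of 5 pairs, and, of each related list, at most the 4 largest changes past the thresholds in a tissue. Other genes were named as markers or, among collagens, to complete their class; some genes of these lists are not reported here by name. The members and the gene lists, written from general knowledge, were chosen with earlier results of these data known. Promoter windows were from RefSeq (GRCm38.p6).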

Additional observations from a re-analysis of the deposited data

Results flagged for a closer look

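Col5a3, a minor fibrillar chain of type V, moved in opposite directions in the 2 tissues. It was higher in kidney CLP + MLT than in kidney CLP (log2 ratio 0.68) and lower in heart CLP + MLT than in heart CLP (-0.80), a heart minus kidney difference of -1.48. Each tissue had 1 library per group, so the difference was not tested. How many of all genes were called in opposite directions was not counted. With library size alone as the scale the kidney ratio was 0.49 and no longer past the thresholds.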

How the results depend on the processing

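No paired analysis was possible because each group had 1 library in each tissue, which also left no replicate to leave out. Of 258 single-gene values under other scalings, another prior count and removal of the length trend, 250 kept their direction and their side of the thresholds. Assumed variation and the fold of 2 are not in this tally and are given as counts. Some settings lay close to the main one and could change few calls. DESeq2 size factors moved the median of all kidney genes only from 0.0029 to -0.00021. With library size alone, kidney ratios turned sign for Col1a2 (-0.0456), Col4a4 (-0.17), Col4a5 (-0.0174) and Col6a1 (-0.00924), and 2 were no longer past the thresholds, Col23a1 (0.59) and Col5a3 (0.49). Col4a2 in kidney (-0.62) then passed, and Col5a2 in heart (-0.61) passed once the trend on length was removed. Library size alone also moved the median of all genes to -0.19 in kidney and 0.058 in heart, the median of kidney type IV genes to -0.20 and the count of genes higher in heart from 15 to 9.

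The number past the thresholds depended most on the variation assumed between mice. In kidney 9 became 2 at a coefficient of variation of 0.2, 1 at 0.4 and 4 at a fold of 2 (Col8a1, Col13a1, Col14a1 and Col26a1). In heart 5 became 0 under each of these. Among all genes, 3.66% and 0.532% passed in kidney and 4.17% and 0.397% in heart at 0.2 and 0.4, and 1185 of 16932 kidney genes and 1259 of 15871 heart genes passed at a fold of 2. With no filter on low counts, Col6a4 was added in kidney (10 in all) and Col26a1 in heart (6 in all). A filter at a mean of 50 left 8 in kidney, without Col8a1, and 5 in heart. The other planned scalings and the prior count of 5 left the kidney count at 9 and the heart count at 5.

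With the length of the longest coding transcript, an alternative chosen after seeing the data, the chain ratios in kidney CLP, kidney CLP + MLT, heart CLP and heart CLP + MLT moved as follows. Col1a1 to Col1a2 came to 0.445, 0.261, 0.686 and 0.461, and Col4a1 to Col4a2 to 1.30, 1.38, 0.861 and 0.985. Col4a3 to Col4a4 came to 1.11 and 1.07 in kidney, and Col5a1 to Col5a2 to 0.285, 0.182, 0.678 and 0.697. Col6a1 to Col6a2 came to 2.08, 3.07, 2.53 and 2.20. Depth limits the sparse genes: intervals of genes under 60 reads, such as Col4a6 and Col13a1 in heart, covered a wide range.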
